A study of Rattus norvegicus with 6 samples.

Results

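The genes described here are 38 members of the signalling system of transforming growth factor beta (TGF-beta), the activins and the bone morphogenetic proteins (BMPs), measured in whole hearts of rats. They were chosen by name, as 13 ligands, 10 receptors and co-receptors, 5 receptor-activated or common SMADs, 2 inhibitory SMADs, 5 extracellular binders and antagonists, and 3 target genes. All 38 were found on the array, each with 1 probe set carrying its symbol alone, among 15037 genes so named and 23188 probe sets tested. RNA was hybridised to 6 Clariom S Rat microarrays, 2 in each of 3 groups of male Sprague-Dawley rats, aged 10 weeks per the labels. By their labels, the TAC-R hearts had been released from a constriction of the aorta, the TAC hearts were under that constriction, and the normal hearts served as controls. TAC is a narrowing of the transverse aorta, made here by tying a silk thread around the vessel over a blunt needle, which raises the pressure against which the left ventricle pumps. The labels describe control rats that went through the same operation without the ligature, without saying whether such rats gave the normal hearts. How long TAC and its release lasted is not stated in the labels. Nor do they say that a group's 2 arrays stand for separate animals, so the p-values reflect array-to-array spread that could be technical.

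Ligands of this family are secreted, and many are held in the matrix in a latent form by binding proteins. They bring together type I and type II receptor kinases on the target cell. The type I receptor phosphorylates a SMAD protein, SMAD2 or SMAD3 in the TGF-beta and activin branch and SMAD1 or SMAD5 in the BMP branch, which joins SMAD4 and enters the nucleus. In the heart the TGF-beta branch is known for driving fibroblasts to make collagen, and the BMP branch for roles in heart development and in blood vessels. Antagonists such as follistatin and gremlin bind ligands outside the cell, and the inhibitory SMADs act inside it.

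The values are log2 signals made by the authors, with array medians from 5.31 to 5.39. Signals are called above background where they exceed the 95th percentile of the negative control probe sets of the same array, which was 8.17 and 8.09 on the TAC-R arrays, 8.22 and 8.12 on the TAC arrays, and 8.45 and 8.55 on the normal arrays. Arrays of a group correlated at 0.991 to 0.993 across probe sets and arrays of different groups at up to 0.991. Heart muscle genes were at the top of the scale: Actc1, Mb, Myl3 and Pln lay at its ceiling of 19.9315 on all 6 arrays, although the labels' RNA extraction text names cultured fibroblasts. On the arrays labelled TAC, genes that are known to be induced in loaded heart muscle were at their lowest, namely Nppb, Myh7, Acta1 and Ankrd1. Nppb, which encodes B-type natriuretic peptide, had 16.91 and 17.23 on the TAC-R arrays, 13.57 and 13.88 on the TAC arrays, and 16.05 and 15.72 on the normal arrays. Its TAC minus normal difference was -2.16 ± 0.24 (SE) in limma's linear model (adjusted p = 0.0118). Natriuretic peptides are known to rise under aortic constriction, whereas Nppb was lowest on the arrays labelled TAC. Other genes had the other sign: all 8 fibroblast markers described below had a TAC minus normal difference above 0, and 0 passed. Whether labels were exchanged was not tested, and every direction given here is between arrays labelled TAC-R, TAC and normal. Some atrial and red cell genes also differed between groups. Of 6 atrial markers 1 passed, Myl7, the atrial myosin light chain. It passed between TAC-R and TAC (adjusted p = 0.00315) and between TAC-R and normal (adjusted p = 0.0105). It had 14.30 and 12.54 on the TAC-R arrays, 7.48 and 7.51 on the TAC arrays, and 8.40 and 8.43 on the normal arrays. Of the 6 markers, 5 had a TAC-R minus TAC difference above 0, and Dkk3 had one below 0, at -0.63 ± 0.21. Sln was below background on all 6 arrays. Of 7 red cell genes, 5 passed as higher on the TAC than on the normal arrays. Between TAC-R and TAC 3 passed as lower, and between TAC-R and normal 1 passed as higher. Their summed signal was 20.33 to 20.43 on the TAC-R arrays, 20.78 to 20.84 on the TAC arrays and 19.58 to 19.66 on the normal arrays. The haemoglobin gene Hba-a1 made up most of this sum and lay at the ceiling on both TAC arrays, so the TAC value is a lower limit. Without it the other 6 summed to 18.80 to 19.07 on the TAC-R arrays, 19.61 to 19.73 on the TAC arrays and 17.60 to 17.89 on the normal arrays. The part of these differences in the results below was not tested.

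Of the 38 genes, 13 lay above background on all 6 arrays, 7 on some arrays and 18 on none. Most receptor-activated or common SMADs and several receptors were above background, whereas the ligands mostly were not. Of the 5 receptor-activated or common SMADs 4 were above background on all 6 arrays, and of the 10 receptors 6 were. Smad2 exceeded the limit narrowly on some arrays, with 8.22 against 8.17 on TAC-R replicate 1 and 8.61 against 8.55 on normal replicate 2. Of the 13 ligands 0 were above background on every array and 10 were above it on none, and both inhibitory SMADs lay below it throughout. Where both groups of a comparison lie below background, the size of the difference is not measured. Nor is it where 1 group lies below background and the mean of the other is no higher than the background level that stands in for it, so that the bound would be under 1. Signals of different probe sets are not compared with each other.

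Between the TAC-R and the TAC arrays, Fstl1, a secreted glycoprotein of the follistatin-like family, fell 3.21-fold, and it was the single gene of the 38 that passed the test in any comparison. This call was lost when the fit held just the 2 groups compared, with the same difference of -1.68 log2 units (adjusted p = 0.0748 in limma). Leaving out 1 TAC-R or TAC array gave differences between -1.90 and -1.46, with the group left with 1 array assumed to vary like the others. Leaving out a normal array did not change the difference. In whole-heart RNA, fewer cells of a type and less RNA per cell cannot be told apart. The test was limma's moderated linear model over all 6 arrays, with a threshold of 0.05 on p-values adjusted by Benjamini and Hochberg over all 23188 probe sets. It called 1 of the 38 genes, or 2.63%, lower on the TAC-R arrays, against 0.207% of all probe sets called lower, 0.224% called higher and 0.431% called in either direction. At an unadjusted p under 0.05 there were 9 genes, or 23.7%, against 11% of all probe sets. The median difference of the 38 genes was -0.28 log2 units, with a range from -1.68 to 1.25, beside a median of 0.00 over all probe sets. By differences, 27 genes lay below 0 and 11 above it. Both TAC-R arrays lay below both TAC arrays for 19 genes, or 50%, against 20.4% of all probe sets, and above both for 2 genes, or 5.26%, against 20.1%. In either direction this made 21 genes, or 55.3%, against 40.5% of all probe sets.

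Between the TAC and the normal arrays 0 of the 38 genes passed, against 0.19% of all probe sets called higher, 0.0647% called lower and 0.254% in either direction. The smallest adjusted p was 0.364, and 7 genes, or 18.4%, had an unadjusted p under 0.05, against 10.3% of all probe sets. The median difference was 0.11 log2 units, with a range from -0.68 to 0.90, beside 0.00 over all probe sets. Both TAC arrays lay above both normal arrays for 12 genes, or 31.6%, against 21.9% of all probe sets, and below both for 6 genes, or 15.8%, against 21.3%. In either direction this made 18 genes, or 47.4%, against 43.3%.

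Between the TAC-R and the normal arrays 0 of the 38 genes passed, against 0.0604% of all probe sets called higher, 0.0302% called lower and 0.0906% in either direction. The smallest adjusted p was 0.242, and 7 genes, or 18.4%, had an unadjusted p under 0.05, against 10.7% of all probe sets. The median difference was -0.13 log2 units, with a range from -1.20 to 0.61. Both TAC-R arrays lay below both normal arrays for 11 genes, or 28.9%, against 20.3% of all probe sets, and above both for 3 genes, or 7.89%, against 20.6%. In either direction this made 14 genes, or 36.8%, against 40.9%. A single F test over the 3 groups called 0 of the 38 genes and 0.41% of all probe sets, and Fstl1 came closest (adjusted p = 0.053).

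With 2 arrays per group, the fit reported here could call only large changes. Standard errors of the 38 differences ran from 0.21 to 0.44 log2 units with a median of 0.25, and at that median a gene needed a difference of 1.53 to pass between TAC-R and TAC, 1.64 between TAC and normal, and 1.89 between TAC-R and normal. The 95% interval of the difference stayed within 1 log2 unit of 0 for 24 genes between TAC-R and TAC, for 25 between TAC and normal, and for 25 between TAC-R and normal. Of these genes, in the same order of comparisons, 9, 12 and 8 lay above background on all 6 arrays. Another 13, 11 and 12 lay below it on all 6 arrays, where the size of a difference is not measured. For the genes not within 1 log2 unit of 0 the interval reached a 2-fold difference in signal. The TAC arrays enter the TAC-R against TAC and the TAC against normal comparisons, so opposite signs in those comparisons are not separate findings.

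**Figure D1:**
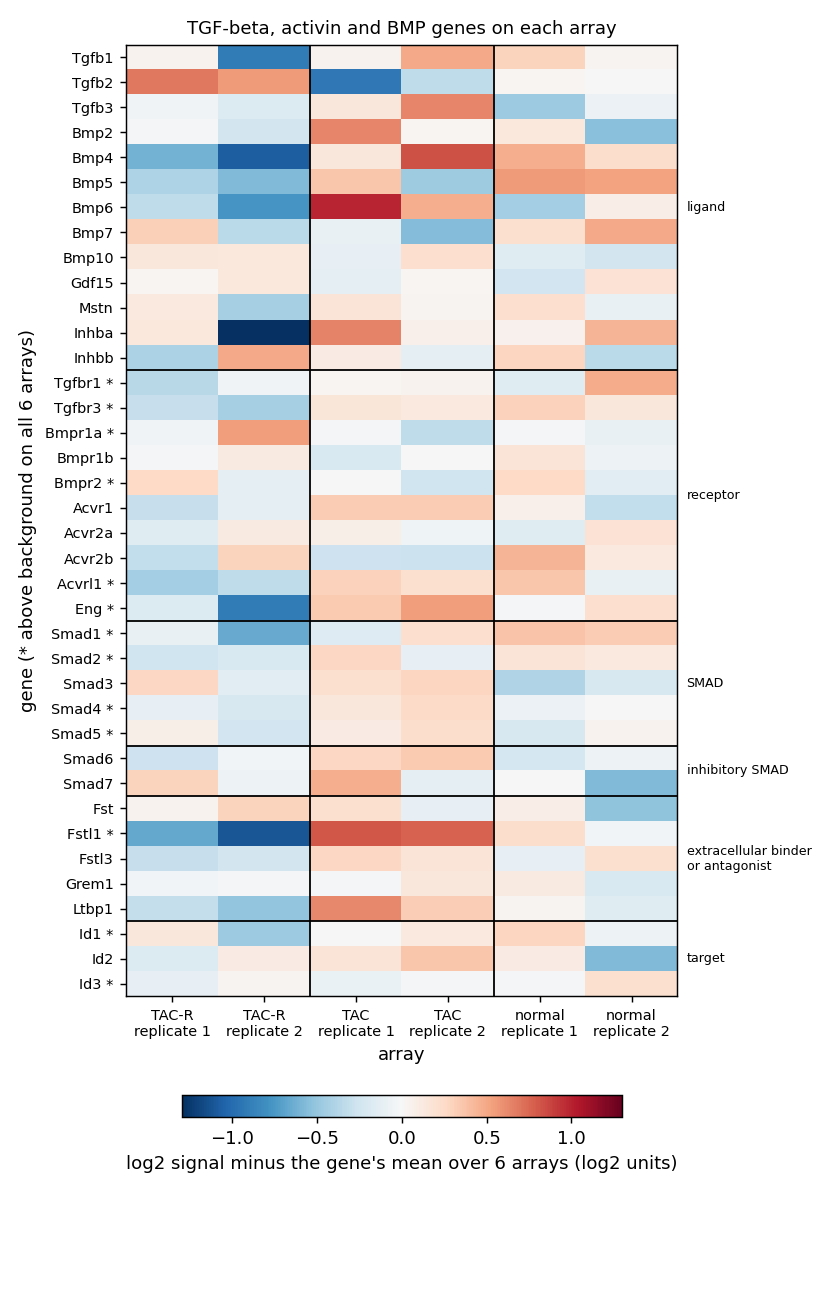
Log2 signal of the 38 genes on each of the 6 arrays, as the deviation from the gene's mean over the arrays, with genes grouped by role down the page and an asterisk at the 13 genes above background on all 6 arrays. Both TAC-R columns are blue at Fstl1, Bmp4 and Bmp6, and Inhba and Tgfb1 are low on TAC-R replicate 2 alone.

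**Figure D2:**
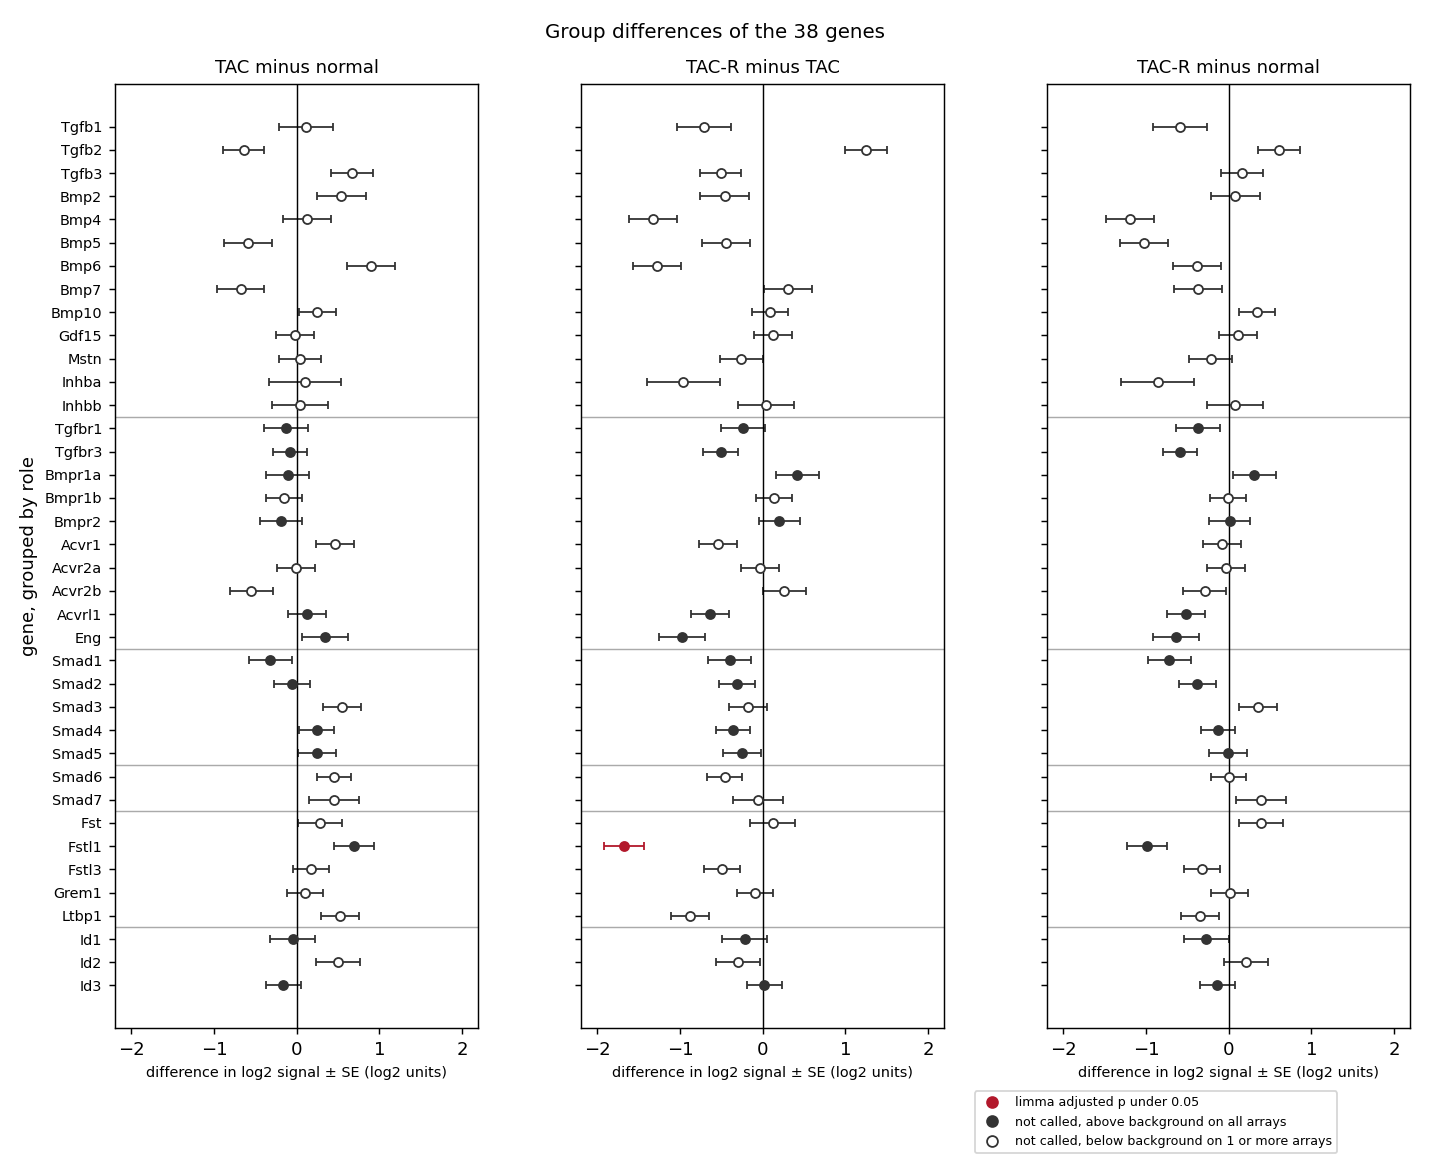
Difference of each of the 38 genes between groups, with its standard error from limma, in log2 units, in 1 panel per comparison. Fstl1 in the TAC-R minus TAC panel, at -1.68, is the single point past the threshold, and most other points of that panel lie left of 0.

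Fstl1 was above background on every array. In mammals it is secreted by heart muscle and connective tissue cells, and binding to BMPs and TGF-beta family members has been described. The start region of Fstl1 is shown because it was the gene that passed. The windows of Bmp4 and Eng are shown beside it because both were among the 6 genes with the smallest p in the same comparison and held 2 copies each of a SMAD-binding letter run, and that of Smad7 as an example of the 2 windows, with that of Inhbb, that held 2 copies of the run bound by SMADs of the BMP branch. Each window is the 250 bases before the annotated start of the gene in RefSeq's GRCr8 assembly, read 5′ to 3′ on the gene's strand, with motif matches in capitals. They lie at chr11:76454054-76454303 on the minus strand for Fstl1, chr15:22101934-22102183 on the minus strand for Bmp4, chr3:36332029-36332278 on the plus strand for Eng and chr18:71263258-71263507 on the plus strand for Smad7.
Fstl1: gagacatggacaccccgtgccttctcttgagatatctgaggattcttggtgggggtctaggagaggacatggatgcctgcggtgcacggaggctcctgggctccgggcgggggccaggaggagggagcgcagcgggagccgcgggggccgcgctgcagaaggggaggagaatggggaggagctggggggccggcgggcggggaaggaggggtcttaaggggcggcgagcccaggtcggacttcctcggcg
Bmp4: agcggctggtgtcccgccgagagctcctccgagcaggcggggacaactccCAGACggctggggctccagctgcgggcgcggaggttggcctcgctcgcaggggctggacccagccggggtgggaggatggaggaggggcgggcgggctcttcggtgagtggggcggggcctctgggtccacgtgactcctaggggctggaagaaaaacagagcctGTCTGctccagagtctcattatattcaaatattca
Eng: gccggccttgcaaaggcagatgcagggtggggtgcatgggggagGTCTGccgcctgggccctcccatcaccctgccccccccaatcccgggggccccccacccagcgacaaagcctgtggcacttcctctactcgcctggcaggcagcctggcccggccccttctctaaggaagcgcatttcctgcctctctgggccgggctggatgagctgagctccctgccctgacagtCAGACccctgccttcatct
Smad7: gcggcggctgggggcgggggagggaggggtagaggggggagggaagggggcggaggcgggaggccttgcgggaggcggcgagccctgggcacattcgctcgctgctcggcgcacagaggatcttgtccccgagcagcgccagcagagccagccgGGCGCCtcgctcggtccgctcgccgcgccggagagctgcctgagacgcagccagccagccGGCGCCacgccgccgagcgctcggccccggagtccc

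The letters searched were CAGAC, with GTCTG on the other strand, the core of the site bound by SMAD3 and SMAD4, and GGCGCC, which reads the same on both strands and is bound by SMAD1 and SMAD5. Windows were found for 30 of the 38 genes. CAGAC stood in the windows of 5 of those genes, or 16.7%, namely Bmp4, Eng, Fstl3, Gdf15 and Ltbp1, against 42.9% of 33469 windows of all genes. GGCGCC stood in the windows of 6 genes, or 20%, namely Grem1, Inhbb, Smad2, Smad7, Tgfbr1 and Tgfbr3, against 8.69% of all windows. The windows of these 6 genes held from 71.2% (Tgfbr3) to 86.8% (Inhbb) of the letters G and C. For both runs the first share counts genes and the second counts windows, and G and C content was not matched. The Fstl1 window held neither. A match is a run of letters and not evidence of binding.

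On the arrays, Fstl1 had 11.88 and 11.44 log2 units on the TAC-R arrays, 13.36 and 13.32 on the TAC arrays, and 12.78 and 12.51 on the normal arrays. The 3 groups did not overlap: both TAC-R arrays were lowest, both normal arrays were in the middle and both TAC arrays were highest. The TAC-R minus TAC difference was -1.68 ± 0.24 (SE, 95% interval -2.22 to -1.14, adjusted p = 0.0286 in limma). The TAC minus normal difference was 0.69 ± 0.24 (interval 0.16 to 1.23, adjusted p = 0.392), and the TAC-R minus normal difference was -0.99 ± 0.24 (interval -1.53 to -0.45, adjusted p = 0.242), so neither passed. The call between TAC-R and TAC was lost with just those 2 groups in the fit. Leaving out 1 TAC-R or TAC array kept the difference within -1.90 to -1.46. In such a fit the group left with 1 array has no spread of its own and is assumed to vary like the others. With 2 arrays against 2 an exact permutation test cannot go below p = 0.33, so the call rests on the spread that limma pools over probe sets.

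Of 8 fibroblast markers, among them the collagen genes Col1a1, Col1a2 and Col3a1, 2 fell between TAC-R and TAC, Col3a1 by 1.72 ± 0.24 (adjusted p = 0.0269) and Col1a2 by 1.66 ± 0.27 (adjusted p = 0.0469). All 8 had a difference below 0 in that comparison, with a median of -1.42, and all 8 had a TAC minus normal difference above 0, with a median of 0.82 and 0 that passed. Their summed signal (log2 of the sum of their linear signals) was 16.47 to 16.85 on the TAC-R arrays, 17.45 to 17.54 on the TAC arrays and 17.01 to 17.35 on the normal arrays. Dcn, or decorin, the brightest of them, made up most of that sum, and without it the other 7 summed to 13.57 to 13.96 on the TAC-R arrays, 15.18 to 15.33 on the TAC arrays and 14.27 to 14.38 on the normal arrays. Tcf21 and Postn lay below background on all 6 arrays. The part of the fibroblast content in the Fstl1 result was not tested.

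**Figure D3:**
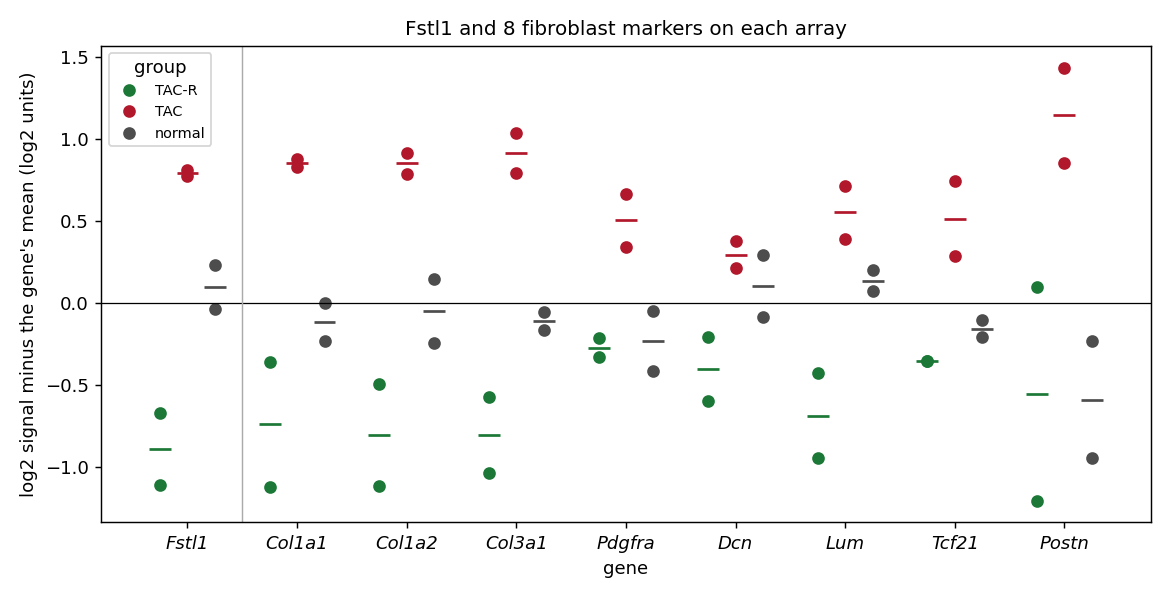
Fstl1 and 8 fibroblast markers on each array, as the deviation of the log2 signal from the gene's mean over 6 arrays, with a point per array and a bar at the mean of 2 arrays. For Fstl1 the TAC-R points lie lowest and the TAC points highest, and for each of the 8 markers the TAC mean lies above the TAC-R mean.

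The other extracellular proteins did not pass in any comparison. Ltbp1, which tethers latent TGF-beta to the matrix, had 7.72 and 7.51 on the TAC-R arrays, 8.65 and 8.34 on the TAC arrays, and 8.06 and 7.87 on the normal arrays. It was above background on both TAC arrays and on no other array. Between TAC-R and TAC its difference was -0.88 ± 0.23 (adjusted p = 0.189). The TAC signal was at least 1.29-fold higher when the TAC-R signals are set to the background level of their arrays. Its TAC minus normal difference was 0.53 ± 0.23 (adjusted p = 0.472), with no bound above 1.

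Follistatin (Fst), which neutralises activins, its relative Fstl3, and Grem1, a BMP antagonist, were below background on all arrays. Fst had differences from 0.12 to 0.39 over the 3 comparisons. Fstl3 had 6.49 and 6.55 on the TAC-R arrays, 7.06 and 6.96 on the TAC arrays, and 6.68 and 7.0 on the normal arrays. Both TAC-R arrays thus lay below the others, by amounts whose true size is not measured (TAC-R minus TAC adjusted p = 0.459). Grem1 had 3.27 and 3.28 on the TAC-R arrays, 3.29 and 3.45 on the TAC arrays, and 3.42 and 3.11 on the normal arrays, which differed by no more than the arrays of a group did.

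Among the 3 TGF-beta ligands the probe sets of Tgfb2 and Tgfb3 gave differences of opposite sign where the TAC arrays were compared. Tgfb2 had 7.29 and 7.15 on the TAC-R arrays, 5.67 and 6.27 on the TAC arrays, and 6.63 and 6.59 on the normal arrays. The groups did not overlap, with TAC-R highest and TAC lowest, but all 6 values lay below background. Its TAC-R minus TAC difference of 1.25 ± 0.25 was the largest positive one among the 38 genes and did not pass (adjusted p = 0.102), and the differences were -0.64 ± 0.25 for TAC minus normal (adjusted p = 0.443) and 0.61 ± 0.25 for TAC-R minus normal (adjusted p = 0.441). Tgfb3 had 7.55 and 7.42 on the TAC-R arrays, 7.75 and 8.23 on the TAC arrays, and 7.13 and 7.52 on the normal arrays. Both TAC arrays were higher than the other 4, and TAC replicate 2 was the single array above background. Its differences were -0.51 ± 0.25 for TAC-R minus TAC (adjusted p = 0.514) and 0.67 ± 0.25 for TAC minus normal (adjusted p = 0.431), and their sizes are not measured.

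Tgfb1, the isoform best known for its role in cardiac fibrosis, was above background on 4 of the 6 arrays. It had 8.42 and 7.46 on the TAC-R arrays, 8.42 and 8.87 on the TAC arrays, and 8.66 and 8.41 on the normal arrays. TAC-R replicate 2 was lower than the other 5 arrays, and TAC-R replicate 1 had the value of TAC replicate 1 to 2 decimals. The TAC-R minus TAC difference was -0.71 ± 0.33 (adjusted p = 0.482), and the TAC minus normal difference was 0.11 ± 0.33, with a 95% interval from -0.64 to 0.86 (adjusted p = 0.939).

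Bmp6 and Bmp4 were the BMP ligands with the smallest p-values between TAC-R and TAC. Bmp6, known in the liver as the ligand that links iron stores to the hormone hepcidin, had 7.68 and 7.24 on the TAC-R arrays, 9.0 and 8.48 on the TAC arrays, and 7.57 and 8.10 on the normal arrays. Both TAC arrays were higher than the other 4 and were the only arrays above background. The TAC-R minus TAC difference was -1.28 ± 0.29 (adjusted p = 0.143), with the TAC signal at least 1.52-fold above that of TAC-R. The TAC minus normal difference was 0.90 ± 0.29 (adjusted p = 0.364), with the TAC signal at least 1.18-fold above that of the normal arrays. This was the smallest p of the 38 genes between TAC and normal.

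Bmp4 had 5.46 and 5.00 on the TAC-R arrays, 6.22 and 6.90 on the TAC arrays, and 6.54 and 6.30 on the normal arrays. Both TAC-R arrays were below the other 4, the TAC and normal arrays overlapped, and all values were below background. Its differences were -1.33 ± 0.29 for TAC-R minus TAC (adjusted p = 0.131), -1.20 ± 0.29 for TAC-R minus normal (adjusted p = 0.242) and 0.13 ± 0.29 for TAC minus normal (adjusted p = 0.911).

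**Figure D4:**
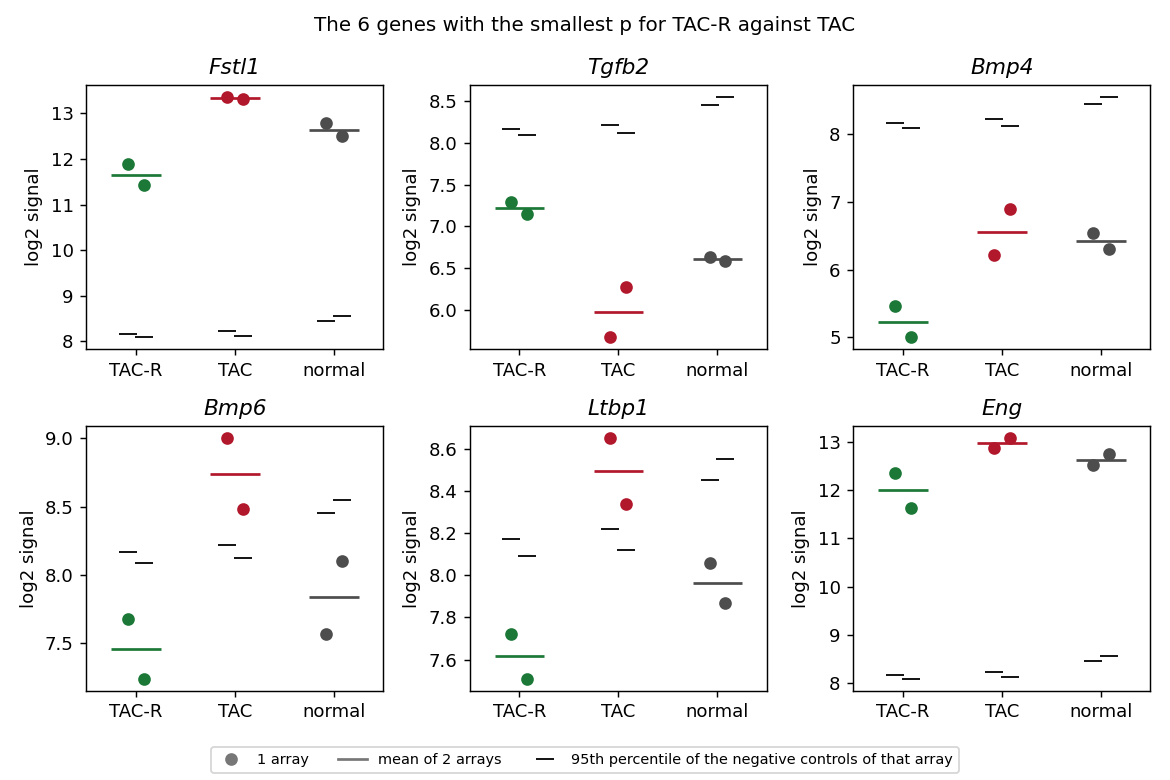
Log2 signal on each array of the 6 genes with the smallest p between TAC-R and TAC, with a point per array, a line at the mean of 2 arrays and a short dash at that array's background level. Fstl1 and Eng lie well above the dashes on every array, Bmp6 and Ltbp1 pass them on the TAC arrays, and Tgfb2 and Bmp4 stay below them.

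The remaining BMP and activin ligands lay below background on every array. Bmp5 had 3.06 and 2.89 on the TAC-R arrays, 3.83 and 3.00 on the TAC arrays, and 4.02 and 3.99 on the normal arrays, so that both normal arrays were highest (TAC-R minus normal -1.03 ± 0.29, adjusted p = 0.302). Bmp7 had 3.86 and 3.20 on the TAC-R arrays, 3.45 and 2.99 on the TAC arrays, and 3.76 and 4.04 on the normal arrays, with TAC below normal (-0.68 ± 0.29, adjusted p = 0.468). All these signals were under the negative control medians, which lay between 4.39 and 4.63, and their differences carry no measured size. Bmp10, a ligand known from the atria, had 3.04 and 3.03 on the TAC-R arrays, 2.79 and 3.11 on the TAC arrays, and 2.74 and 2.65 on the normal arrays. It stayed below background on the TAC-R arrays, where atrial Myl7 was higher than on the TAC arrays (adjusted p = 0.00315) at 14.30 and 12.54, values that differed between the 2 TAC-R arrays by more than those of either other group did. Gdf15, a stress-induced family member, had 3.73 and 3.84 on the TAC-R arrays, 3.59 and 3.73 on the TAC arrays, and 3.46 and 3.89 on the normal arrays, with no difference over 0.13 between group means. Inhba, the activin A subunit, had 7.06 and 5.57 on the TAC-R arrays, 7.57 and 6.99 on the TAC arrays, and 6.98 and 7.37 on the normal arrays. Its low value on TAC-R replicate 2 gave the largest standard error of the 38 genes, 0.44. Bmp2, Mstn (myostatin, a brake on muscle growth) and Inhbb had differences from -0.46 to 0.54 over the 3 comparisons, none of which passed.

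Among the receptors, the endothelial Eng and Acvrl1 had their lowest means on the TAC-R arrays, and no receptor passed in any comparison. Tgfbr1, Tgfbr3 and Acvr1 had their lowest means there too. Eng, or endoglin, is a co-receptor of endothelial cells for TGF-beta and for BMPs. It had 12.36 and 11.63 on the TAC-R arrays, 12.88 and 13.08 on the TAC arrays, and 12.52 and 12.75 on the normal arrays. Both TAC-R arrays were lowest and both TAC arrays highest, with no overlap between groups. The TAC-R minus TAC difference was -0.98 ± 0.28 (interval -1.61 to -0.35, adjusted p = 0.233), and the TAC-R minus normal difference was -0.64 ± 0.28 (interval -1.27 to -0.01, adjusted p = 0.463). Acvrl1, the type I receptor ALK1 of endothelial cells, had 8.57 and 8.68 on the TAC-R arrays, 9.31 and 9.22 on the TAC arrays, and 9.37 and 8.92 on the normal arrays. The TAC-R arrays lay below the other 4, with a TAC-R minus TAC difference of -0.64 ± 0.23 (adjusted p = 0.355). Of 7 endothelial markers 0 passed in any comparison, and Tie1 was below background on all 6 arrays. Their summed signal was 14.58 to 15.37 on the TAC-R arrays, 15.69 to 15.79 on the TAC arrays and 15.90 to 15.91 on the normal arrays. Without Cdh5, the brightest, the rest summed to 12.32 to 12.74 on the TAC-R arrays, 12.99 to 13.12 on the TAC arrays and 13.10 to 13.32 on the normal arrays. Between TAC-R and TAC 6 of the 7 markers had a difference below 0, with a median of -0.60. Between TAC and normal their median was -0.09, where Eng had a difference of 0.34 and Acvrl1 of 0.12. Their part in the Eng and Acvrl1 differences was not tested.

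Tgfbr3, or betaglycan, a co-receptor that presents TGF-beta2 to the signalling receptors, had 10.25 and 10.12 on the TAC-R arrays, 10.71 and 10.68 on the TAC arrays, and 10.85 and 10.70 on the normal arrays. Both TAC-R arrays lay below the other 4, and the arrays of each group were close together. The differences were -0.59 ± 0.21 for TAC-R minus normal (adjusted p = 0.381), -0.51 ± 0.21 for TAC-R minus TAC (adjusted p = 0.414) and -0.08 ± 0.21 for TAC minus normal, with an interval of -0.55 to 0.40 (adjusted p = 0.931). Acvr1, the type I receptor ALK2, had 8.13 and 8.30 on the TAC-R arrays, 8.76 and 8.76 on the TAC arrays, and 8.49 and 8.11 on the normal arrays. It was above background on both TAC arrays, on 1 TAC-R array and on 1 normal array, and its TAC-R minus TAC difference was -0.54 ± 0.23 (adjusted p = 0.428).

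The BMP type II receptor Bmpr2 had 13.57 and 13.19 on the TAC-R arrays, 13.31 and 13.05 on the TAC arrays, and 13.57 and 13.16 on the normal arrays. The 3 groups overlapped, and the intervals of its differences ran from -0.76 to 0.38 for TAC minus normal, from -0.36 to 0.77 for TAC-R minus TAC and from -0.55 to 0.58 for TAC-R minus normal. Bmpr1a, a BMP type I receptor, had 11.09 and 11.68 on the TAC-R arrays, 11.11 and 10.81 on the TAC arrays, and 11.11 and 11.04 on the normal arrays. TAC-R replicate 2 was highest, TAC-R replicate 1 lay among the other arrays, and the TAC-R minus TAC difference was 0.42 ± 0.26 (adjusted p = 0.618). Tgfbr1, the type I receptor of TGF-beta, had 8.94 and 9.26 on the TAC-R arrays, 9.33 and 9.35 on the TAC arrays, and 9.15 and 9.79 on the normal arrays, with the normal arrays overlapping both other groups and differences between -0.37 and -0.13. The activin type II receptors Acvr2a and Acvr2b and the receptor Bmpr1b were below background on all arrays. The differences of Acvr2a lay between -0.03 and -0.01 and those of Acvr2b between -0.55 and 0.26, with no adjusted p under 0.507. Bmpr1b had 2.99 and 3.14 on the TAC-R arrays, 2.82 and 3.03 on the TAC arrays, and 3.19 and 2.95 on the normal arrays. Tgfbr2, the type II receptor of TGF-beta, had no probe set with its symbol alone and was not analysed here.

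None of the 5 receptor-activated or common SMADs passed the test. Smad4, the partner common to both branches, had 13.37 and 13.27 on the TAC-R arrays, 13.63 and 13.73 on the TAC arrays, and 13.41 and 13.48 on the normal arrays. The groups did not overlap, but the steps were small: -0.36 ± 0.21 for TAC-R minus TAC (interval -0.83 to 0.10, adjusted p = 0.582) and 0.24 ± 0.21 for TAC minus normal (interval -0.23 to 0.70, adjusted p = 0.727). Smad1, of the BMP branch, had 9.33 and 8.77 on the TAC-R arrays, 9.25 and 9.64 on the TAC arrays, and 9.79 and 9.75 on the normal arrays. Both normal arrays were highest, and the TAC-R minus normal difference of -0.72 ± 0.26 did not pass (adjusted p = 0.391). Smad5, of the same branch, had 9.92 and 9.59 on the TAC-R arrays, 9.95 and 10.07 on the TAC arrays, and 9.64 and 9.89 on the normal arrays, and its TAC-R minus normal difference was -0.01 ± 0.23 with an interval from -0.53 to 0.50.

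Smad2 and Smad3 carry the TGF-beta and activin branch. Smad2 had 8.22 and 8.28 on the TAC-R arrays, 8.75 and 8.38 on the TAC arrays, and 8.65 and 8.61 on the normal arrays. Both TAC-R arrays were below the other 4, by -0.31 ± 0.22 against TAC (adjusted p = 0.67) and -0.38 ± 0.22 against normal (adjusted p = 0.578). Smad3 had 8.24 and 7.82 on the TAC-R arrays, 8.18 and 8.25 on the TAC arrays, and 7.58 and 7.76 on the normal arrays. The normal arrays were lowest and below background, and 1 TAC-R and 1 TAC array were above it. The TAC minus normal difference was 0.55 ± 0.23 (adjusted p = 0.468), and its size is not measured. The inhibitory SMADs, which block receptors and SMADs in a feedback loop, stayed below background. Smad6 had 6.53 and 6.77 on the TAC-R arrays, 7.07 and 7.14 on the TAC arrays, and 6.57 and 6.74 on the normal arrays, with both TAC arrays highest (TAC minus normal 0.45 ± 0.21, adjusted p = 0.508, and TAC-R minus TAC -0.46 ± 0.21, adjusted p = 0.484). Smad7 had 6.15 and 5.79 on the TAC-R arrays, 6.33 and 5.73 on the TAC arrays, and 5.87 and 5.29 on the normal arrays, and the 3 groups overlapped.

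The Id genes are direct targets of the BMP branch and encode inhibitors of basic helix-loop-helix transcription factors. Id1 had 11.88 and 11.26 on the TAC-R arrays, 11.73 and 11.86 on the TAC arrays, and 12.01 and 11.67 on the normal arrays. The 3 groups overlapped, with intervals of -0.83 to 0.38 for TAC-R minus TAC, -0.65 to 0.56 for TAC minus normal and -0.87 to 0.34 for TAC-R minus normal. Id3 had 8.44 and 8.58 on the TAC-R arrays, 8.46 and 8.52 on the TAC arrays, and 8.53 and 8.76 on the normal arrays, and the TAC-R arrays overlapped both other groups. Id2 had 7.70 and 7.99 on the TAC-R arrays, 8.05 and 8.24 on the TAC arrays, and 7.99 and 7.30 on the normal arrays, and only TAC replicate 2 was above background. None of the 3 passed, with a smallest adjusted p of 0.557. A p that misses the threshold does not show equal levels, and the intervals give what these arrays leave possible.

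By role, the median TAC-R minus TAC difference was -0.44 over ligands, -0.13 over receptors, -0.31 over SMADs, -0.26 over inhibitory SMADs, -0.49 over extracellular binders and antagonists and -0.22 over Id genes. The TAC minus normal medians were 0.10, -0.09, 0.24, 0.45, 0.28 and -0.05 in the same order of roles. The TAC-R minus normal medians were -0.22, -0.19, -0.13, 0.19, -0.32 and -0.14. Each role holds few genes, many in the background, and no role is set apart from the others by a test.

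A further 77 genes of the system were listed by role, of which 63 had a probe set with their symbol alone. Of these, 45 lay below background on all 6 arrays. Of the 63, 0 passed in any comparison. At an unadjusted p under 0.05 there were 9 genes between TAC and normal, or 14.3% against 10.3% of all probe sets, 13 between TAC-R and TAC, or 20.6% against 11%, and 10 between TAC-R and normal, or 15.9% against 10.7%. The medians were 0.02, -0.03 and 0.00 log2 units in the same order. The 17 further ligands were all below background. Bmp1, a protease that processes procollagens and the BMP antagonist chordin, had the largest positive TAC minus normal and the largest negative TAC-R minus TAC difference, 1.20 ± 0.28 (adjusted p = 0.204) and -1.23 ± 0.28 (adjusted p = 0.143). It had 7.38 and 6.82 on the TAC-R arrays, 8.29 and 8.37 on the TAC arrays, and 6.85 and 7.40 on the normal arrays, so that both TAC arrays stood above the other 4 and were the only arrays above background. Its TAC signal was at least 1.15-fold above that of TAC-R, and against the normal arrays the size of its difference is not measured.

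By sign, 33 of the 63 had a TAC-R minus TAC difference below 0 and 30 above it, beside 49.5% of all probe sets below 0. The numbers below and above 0 were 18 and 5 for extracellular antagonists, carriers and activators, 7 and 10 for ligands, 2 and 4 for receptors and co-receptors, 3 and 6 for SMADs and their regulators, and 3 and 5 for target genes. Acvr1c, a type I receptor, had the largest positive TAC-R minus TAC and the largest negative TAC minus normal difference, 0.98 ± 0.25 (adjusted p = 0.191) and -0.84 ± 0.25 (adjusted p = 0.333). It had 3.27 and 3.66 on the TAC-R arrays, 2.47 and 2.5 on the TAC arrays, and 3.58 and 3.07 on the normal arrays, all in the background, with the TAC arrays lowest. Between TAC-R and normal the largest positive difference was that of Smad9, a SMAD of the BMP branch, at 0.88 ± 0.23 (adjusted p = 0.284). Smad9 had 7.56 and 7.17 on the TAC-R arrays, 6.52 and 6.41 on the TAC arrays, and 6.35 and 6.62 on the normal arrays, with TAC-R highest but below background. The largest negative one was that of Nog, or noggin, a BMP antagonist, at -0.68 ± 0.22 (adjusted p = 0.349). It had 4.45 and 4.24 on the TAC-R arrays, 4.48 and 4.37 on the TAC arrays, and 4.87 and 5.19 on the normal arrays. Both normal arrays were highest, again in the background. Among the 8 further target genes measured, 0 passed, and the median TAC-R minus TAC difference was 0.12.

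In the other marker lists few genes passed. The summed signal of 7 smooth muscle and pericyte markers was 14.96 to 15.05 on the TAC-R arrays, 15.52 to 15.78 on the TAC arrays and 15.44 on both normal arrays. Rgs5, a pericyte gene, made up most of it, and without Rgs5 the other 6 summed to 10.49 to 11.35 on the TAC-R arrays, 11.91 to 12.03 on the TAC arrays and 11.12 to 11.27 on the normal arrays. All 7 had a TAC-R minus TAC difference below 0, with a median of -1.01, and 0 passed in that comparison, while Cnn1 was higher on the TAC than on the normal arrays (adjusted p = 0.0319) at signals below background. The summed signal of 6 macrophage markers was 11.04 to 11.56 on the TAC-R arrays, 11.98 to 12.23 on the TAC arrays and 11.23 to 11.46 on the normal arrays, and 0 passed in any comparison. Without Lyz2, the brightest, the other 5 summed to 9.54 to 9.60 on the TAC-R arrays, 9.83 on both TAC arrays and 9.12 to 9.33 on the normal arrays. Of the 6 macrophage markers, 4 were below background on all 6 arrays. The 5 lymphatic markers summed to 10.76 to 11.01 on the TAC-R arrays, 10.67 to 10.70 on the TAC arrays and 10.39 to 10.83 on the normal arrays. Without Prox1, the brightest, the other 4 summed to 9.40 to 9.79 on the TAC-R arrays, 7.87 to 8.17 on the TAC arrays and 8.97 to 9.46 on the normal arrays. Lyve1 (adjusted p = 0.0157) and Ccl21 (adjusted p = 0.0151) were higher on the TAC-R than on the TAC arrays. Ccl21 was also lower on the TAC than on the normal arrays (adjusted p = 0.0154). All Ccl21 signals were below background. The 4 mesothelial markers measured were below background on all arrays, and 0 passed. The part of these lists in the differences of the 38 genes was not tested.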

How the data were processed

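Whole-heart RNA was measured on 6 single-colour Clariom S Rat microarrays, 2 per group, grouped by the sample titles. Per the labels' descriptions, the deposited log2 values are RMA values (robust multi-array averages) over core exons, which the authors computed with Expression Console. RMA equalises the distributions between arrays, so a change common to all transcripts would be hidden. No label names software versions, background settings or array batches. The number of arrays limits the precision.

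The table held 24834 rows. The 1646 control rows were left out, 1153 of them negative controls that set the background. Of the 23188 tested rows, 15049 had 1 gene symbol in the platform annotation, and updating symbols changed 0. The other 8139 had no symbol or several, and were not assigned to a gene. A gene with several rows would take the one with the highest mean, but each of the 38 genes had 1. Where the dimmer group lies below background, a bound is given where it exceeds 1, the brighter group's mean against the higher of the dim signal and, per array, the background level. Otherwise the difference is limma's and its size is not measured.

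Differences were tested with limma 3.58.1 in R 4.3.3 (lmFit and eBayes) on all 6 arrays, with 1 mean per group, 3 residual degrees of freedom, a prior of 5.71 degrees of freedom and Benjamini-Hochberg adjustment over all tested rows at 0.05. The fit was tested on simulated data. Values on every array are given for genes that passed, for the 6 genes with the smallest p in each comparison, and for the genes with the highest and lowest mean in each role, and a few others were added after their values were seen. Of the further genes, those with the largest differences of either sign are named. The 38 genes, the further genes and the cell type markers were chosen with earlier results of these data known. Alternatives covered the moderation, the rows in the fit, the normalization, the groups in the fit, the replicate number and leaving out each array. Promoter windows come from a RefSeq table of GRCr8, and figures were drawn with matplotlib 3.10.9.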

Additional observations from a re-analysis of the deposited data

How the results depend on the processing

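The called difference of the 38 genes, that of Fstl1 between TAC-R and TAC, kept its sign under every alternative run for it, and 0 of the 38 genes passed between TAC and normal under every alternative run. Between TAC-R and TAC the count of 1 of the 38 genes became 4 with an intensity trend in the moderation (Fstl1, Bmp6 and Eng lower, Tgfb2 higher). It became 2 with probe sets under the median mean left out (Fstl1 and Tgfb2). It was 0 when control rows were kept and when the fit held just the 2 groups compared. For this comparison, leaving out a normal array repeats that 2-group fit. Without a TAC-R or TAC array, a group left with 1 array is assumed to vary like the others. Between TAC-R and normal the count was 1 (Fstl1) with the trend, against 0. The F test called 1 gene, against 0, with the trend, robust moderation, ceiling rows left out, either filter on dim rows, or array medians subtracted. Of the further genes, 3 passed between TAC-R and TAC with the trend (Dcn and Fbn1 lower, Cdkn1a higher) and 1 (Fbn1) with rows under the background percentile left out, against 0. Fstl1 had an adjusted p between 0.000331 and 0.217 over its alternatives in that comparison.

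Counts over all probe sets depended on the fit. With the trend they were 344 between TAC-R and TAC (100 as reported), 170 between TAC and normal (59), 156 between TAC-R and normal (21) and 417 in the F test (95), and with control rows kept in 44, 39, 10 and 51. Rows under the median mean left out gave 187 between TAC-R and TAC, 68 between TAC-R and normal and 196 in the F test, and rows under the background percentile left out gave 197, 52 and 186. Leaving out ceiling rows gave 37 between TAC-R and normal and 148 in the F test, and subtracting array medians gave 54 and 178. Fitting just the 2 groups compared gave 37 between TAC-R and TAC, 35 between TAC and normal and 12 between TAC-R and normal. Leaving out 1 array gave 4 to 37 between TAC-R and TAC, 0 to 35 between TAC and normal, 0 to 12 between TAC-R and normal and 13 to 35 in the F test. The count was 0 without TAC replicate 2 between TAC and normal and 0 without normal replicate 2 between TAC-R and normal. Calls between TAC-R and TAC were 52 higher and 48 lower, but 141 and 203 with the trend, 29 and 15 with control rows, 79 and 108 or 80 and 117 with the filters, and 24 and 13 with 2 groups. The causes of these shifts were not tested.

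Over all tested probe sets, same-numbered arrays did not deviate together (correlations of -0.013 to 0.012). Such correlations cannot exclude a batch or pairing that acts on a part of the genes, and the labels name no batches. The fit with the number as a replicate block called 47, 36 and 11 probe sets in the 3 comparisons and 52 in the F test, and 0 of the 38 genes between TAC-R and TAC, where Fstl1 had an adjusted p = 0.0502.

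Of 114 differences of the 38 genes, 6 that exceeded their standard error changed sign when 1 array was left out, and none of them had passed. The differences ran from -0.03 to 0.58 for Fst between TAC and normal, from -0.02 to 0.64 for Bmp7, -0.04 to 0.56 for Acvr2b and -0.54 to 0.02 for Mstn between TAC-R and TAC, and from -0.60 to 0.01 for Acvr2b and -0.57 to 0.04 for Id1 between TAC-R and normal. Quantile normalization and centring moved the median of all probe sets by at most 0.05. Averaging several rows of a gene was not run, since each gene had 1. Of the 13 ligands 10, and of the 2 inhibitory SMADs 2, were above background on no array.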
